A study of Mus musculus with 8 samples.

Results

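The genes that make, recycle and use glutathione were followed in mouse bone marrow-derived macrophages kept without serine and glycine. The set holds 10 genes (Gclc, Gclm, Gss, Gsr, Ggt5, Chac1, Chac2, Gpx1, Gpx4 and Glrx), taken by gene symbol from a deposited table of 17492 genes. Such macrophages are differentiated in a dish from precursors in the marrow. Libraries from C57BL/6 mice formed 2 groups: 4 serine/glycine-free libraries, whose cells had medium that lacked both amino acids, and 4 control libraries, whose cells had normal medium. The labels name no genotype, mouse age, stimulus or length of withdrawal. They also do not say whether libraries came from separate cultures or animals, so the p-values speak only for the spread among these libraries, and that spread may be technical.

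Glutathione is a tripeptide of glutamate, cysteine and glycine and the main thiol antioxidant of the cell. Serine and glycine feed it: glycine is built in directly, and serine can give both glycine and, through transsulfuration, the carbon skeleton of cysteine. Glutamate cysteine ligase, made of a catalytic subunit (Gclc) and a modifier subunit (Gclm), starts the synthesis, and glutathione synthetase (Gss) adds the glycine. Glutathione peroxidases (Gpx1, Gpx4) spend glutathione on peroxides, glutathione reductase (Gsr) returns the oxidized form to the reduced one with NADPH, and glutaredoxin (Glrx) removes glutathione from protein thiols. The ChaC enzymes (Chac1, Chac2) break glutathione down inside the cell, and Ggt5 is a surface enzyme that cleaves gamma-glutamyl bonds outside it. In macrophages these enzymes meet the oxidants that the cells make themselves.

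Without serine and glycine, 7 of the 10 transcripts rose, 0 fell (also 0 by DESeq2, and 0 at an unadjusted p under 0.05) and 3 were not past the threshold. Across all 11700 genes tested, 15.9% rose and 17.3% fell (edgeR quasi-likelihood test, adjusted p under 0.05). The 10 genes were chosen with earlier results of these data known, so setting them against all genes is description only. Gclm changed most, 2.17-fold, while the other 6 genes that rose did so by 1.07-fold to 1.22-fold. The median log2 change was 0.19 over the 10 genes, against 0.0074 over all genes tested. In CPM (counts scaled to a common library total, with TMM factors) the groups did not overlap for the same 7 genes, all higher. Of all tested genes, 14.5% had no overlap and higher values. In deposited TPM (transcripts scaled to a common sum, with gene length corrected for) the groups overlapped for Gpx1 and Chac2 among those 7. In bulk RNA, a change in the share of cells that express a gene and a change in RNA per cell cannot be told apart.

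The libraries held 17565291 to 18201599 estimated counts each, and the 3 counts that a 0 still allows are worth 0.165 to 0.171 CPM on these totals (without TMM factors). That limit covers counting error only. Over all genes 1855 rose and 2027 fell, and on the deposited TPM 1227 rose and 2091 fell by limma. All 7 macrophage markers were tested, 4 higher (Csf1r, Cd68, Mertk and Lyz2) and 3 lower (Adgre1, Itgam and Fcgr1). Their summed level was 18390 to 18670 CPM in serine/glycine-free libraries and 18380 to 18850 CPM in control libraries. That sum hides opposite changes. In serine/glycine-free against control libraries, Lyz2 averaged 9994 against 9107 CPM and Csf1r 1259 against 946 CPM. Adgre1 averaged 4849 against 5763 CPM and Itgam 1110 against 1695 CPM. The estimated counts of Lyz2 were not all whole (158374.62 to 181203.31), a sign of reads split between loci, which makes its value and the macrophage sum uncertain. Neutrophil markers summed to 1.998 to 2.29 CPM in serine/glycine-free libraries and 0.772 to 1.12 CPM in control libraries. Of those 7 markers only S100a8 had enough counts to test and was higher (1.87 ± 0.255 CPM in serine/glycine-free and 0.755 ± 0.178 CPM in control libraries, SD, n = 4), and the defining Ly6g had 0 to 2 counts per library. Of 4 osteoclast markers 3 were tested, and Ctsk was higher (1.19 ± 0.263 CPM in serine/glycine-free and 0.754 ± 0.171 CPM in control libraries) and Acp5 lower (165 ± 2.80 CPM in serine/glycine-free and 176 ± 3.94 CPM in control libraries). The summed osteoclast level was 166 to 171 CPM in serine/glycine-free and 172 to 181 CPM in control libraries, with the defining Calcr at 0 to 1 counts. The part of these markers in the results was not tested.

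**Figure D1:**
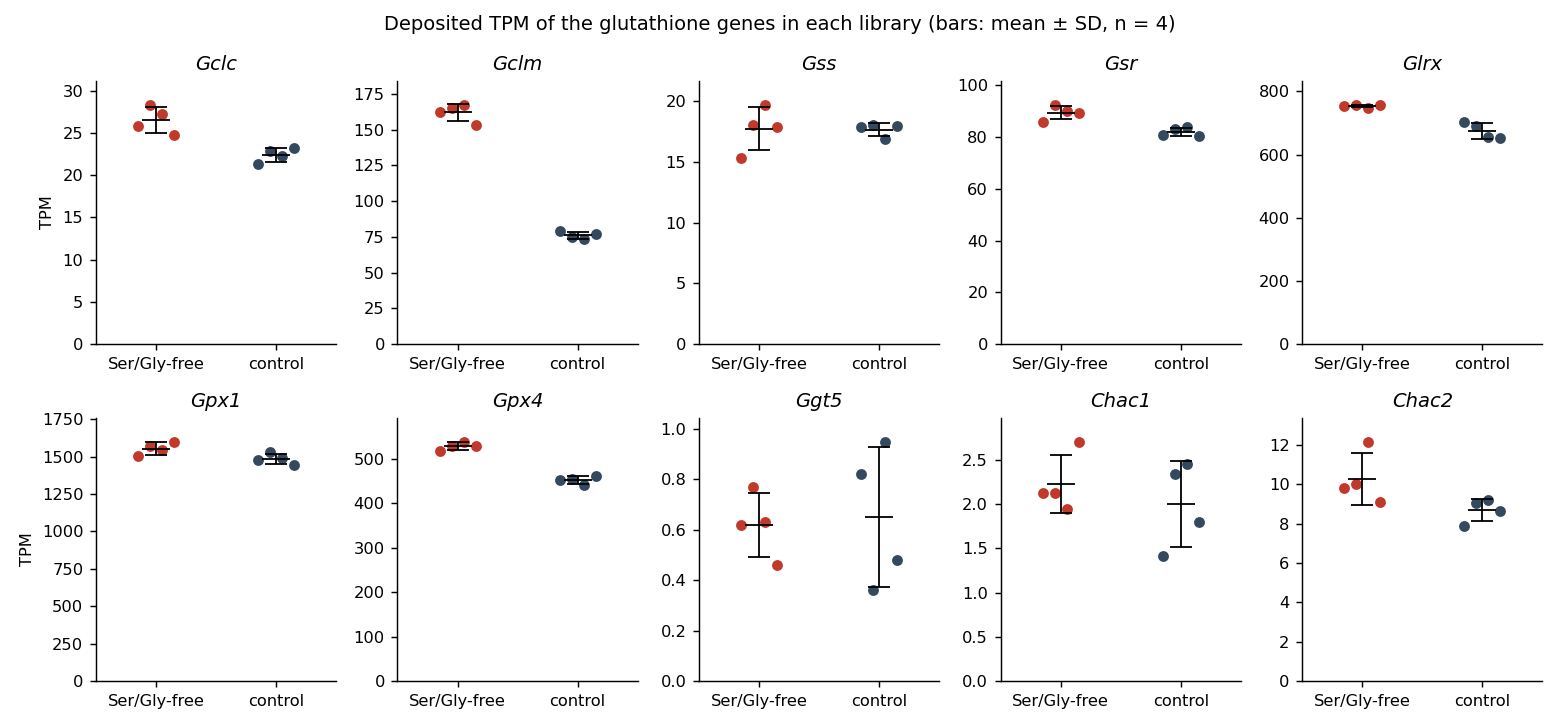
Deposited TPM (vertical axes, from 0) of the 10 glutathione genes in each library, serine/glycine-free on the left and control on the right; points are libraries and bars the mean ± SD, n = 4. Gclm stands at 153 to 167 TPM in serine/glycine-free libraries and 73.4 to 79.1 TPM in control libraries, and the other genes differ much less.

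By level per length, the order was nearly the same in both groups. Gpx1 was highest (1555 ± 41.9 TPM in serine/glycine-free and 1487 ± 33.9 TPM in control libraries, SD, n = 4), followed by Glrx (754 ± 4.67 TPM in serine/glycine-free and 675 ± 24.8 TPM in control libraries) and Gpx4 (529 ± 8.27 TPM in serine/glycine-free and 453 ± 8.89 TPM in control libraries). Gclm and Gsr traded places. In serine/glycine-free libraries Gclm (162 ± 6.18 TPM) stood above Gsr (89.5 ± 2.67 TPM), and in control libraries it stood below (76.2 ± 2.48 against 82.0 ± 1.69 TPM). Below them in both groups came Gclc, Gss, Chac2, Chac1 and Ggt5. In serine/glycine-free libraries their means were 26.5, 17.7, 10.3, 2.23 and 0.620 TPM, and in control libraries 22.4, 17.6, 8.70, 2.002 and 0.653 TPM. Within each group the TPM ranges of neighbours in this order did not overlap. The peroxidase and glutaredoxin transcripts were therefore measured far above those of the synthesis enzymes, and Ggt5 was lowest, at 9 to 19 counts per library.

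Gclm encodes the modifier subunit, which raises the activity of the ligase and eases its feedback inhibition by glutathione. It lies on chromosome 3 at 122245487 to 122267215 (GRCm38.p6, Entrez 14630, protein-coding). Its level was 175, 175, 181 and 170.5 CPM in serine/glycine-free libraries 1 to 4, and 84.9, 78.9, 77.1 and 81.9 CPM in control libraries 1 to 4. All 4 serine/glycine-free libraries were far above all 4 controls, with little spread in either group. The log2 change was 1.12 (SE 0.033, 95% interval 1.05 to 1.19, edgeR adjusted p = 6.7e-29). Among 9751 tested genes whose mean reached 5 CPM it was rank 13 by size of rise, and among all 11700 it was rank 4 by p.

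The promoter of Gclm is shown because it is the member that changed most, and because the core of the antioxidant response element, to which NRF2 binds, can be looked for in it. The core searched was TGACNNNGC, on both strands, in the 250 bases before each RefSeq transcript start (GRCm38.p6). The 180 bases that precede the annotated gene are printed, at chr3:122245307-122245486 on the plus strand, with the match in capitals.
Gclm: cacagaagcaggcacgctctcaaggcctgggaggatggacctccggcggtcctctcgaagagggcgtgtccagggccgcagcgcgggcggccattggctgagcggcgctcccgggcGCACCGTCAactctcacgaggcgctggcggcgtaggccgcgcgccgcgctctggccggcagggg
The match is on the minus strand, at chr3:122245423-122245431, 64 to 56 bases before the annotated gene. Of 32851 such windows in the mouse, 10.2% hold this core, so a match is common. RefSeq windows were matched for 7 of the 10 genes (Chac1, Chac2, Gclm, Glrx, Gpx1, Gpx4 and Gss), and no other member had this core in its windows. A match of letters does not show binding.

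Gclc encodes the catalytic subunit that joins glutamate to cysteine. The gene lies on chromosome 9 at 77754535 to 77794489 (Entrez 14629, protein-coding). It stood at 47.0, 50.8, 50.0 and 46.5 CPM in serine/glycine-free libraries, and at 39.1, 40.0, 39.5 and 41.4 CPM in control libraries. The groups did not overlap, but the gap between them was small beside that of Gclm. Its log2 change was 0.28 (SE 0.044, edgeR adjusted p = 1.18e-06), a 1.22-fold rise (95% interval 1.14 to 1.29).

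The subunits of the ligase thus rose by different amounts, which the ratio of their CPM per effective length shows in each library. Gclm to Gclc was 6.30, 5.82, 6.12 and 6.21 in serine/glycine-free libraries and 3.67, 3.34, 3.30 and 3.35 in control libraries. The ratio averaged 6.11 ± 0.208 in serine/glycine-free and 3.42 ± 0.173 in control libraries (SD, n = 4), higher in every serine/glycine-free library than in any control. The log2 difference was 0.84 (exact two-sided permutation test, p = 0.0286, the smallest that 70 splits allow, adjusted p = 0.0429 over 3 ratios). Without serine/glycine-free replicate 1 or 3 the adjusted p was 0.0857, with log2 differences of 0.83 and 0.84. Every remaining serine/glycine-free library was still above every control. The adjustment takes in all 3 ratios, so this adjusted p cannot show that Gclm to Gclc rests on those replicates. These are transcript ratios and do not measure subunit protein.

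Gss encodes the synthetase that adds glycine, the step that uses one of the withheld amino acids (chromosome 2, 155563181 to 155592810, Entrez 14854). It had 15.6, 17.98, 19.99 and 18.7 CPM in serine/glycine-free libraries, and 18.1, 17.8, 16.5 and 17.8 CPM in control libraries. The serine/glycine-free libraries spread on both sides of the controls. The log2 change was 0.044 (SE 0.066, edgeR adjusted p = 0.661), with a 95% interval of the fold from 0.939 to 1.13. Without serine/glycine-free replicate 3 the log2 change was -0.0083 (adjusted p = 0.952).

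Gsr encodes glutathione reductase (chromosome 8, 33653238 to 33698162, Entrez 14782). It had 122, 128, 128 and 130.3 CPM in serine/glycine-free libraries, and 114, 115, 116 and 112 CPM in control libraries. All serine/glycine-free libraries were higher, replicate 1 least so. The log2 change was 0.16 (SE 0.031, edgeR adjusted p = 7.22e-05), a 1.12-fold rise. Set against the synthetase, Gsr to Gss per effective length was 5.07 ± 0.414 in serine/glycine-free libraries and 4.67 ± 0.235 in control libraries (SD, n = 4). Those ranges overlapped, and the log2 difference of 0.12 did not pass (exact permutation test, p = 0.143, adjusted p = 0.143).

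Glrx encodes cytosolic glutaredoxin, which frees protein thiols from bound glutathione (chromosome 13, 75839885 to 75850151, Entrez 93692). It had 500.3, 491, 495 and 516 CPM in serine/glycine-free libraries, and 462, 446, 421 and 425 CPM in control libraries. Every serine/glycine-free library was above every control. The rise was 1.14-fold (log2 change 0.19, SE 0.027, edgeR adjusted p = 1.93e-07).

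**Figure D2:**
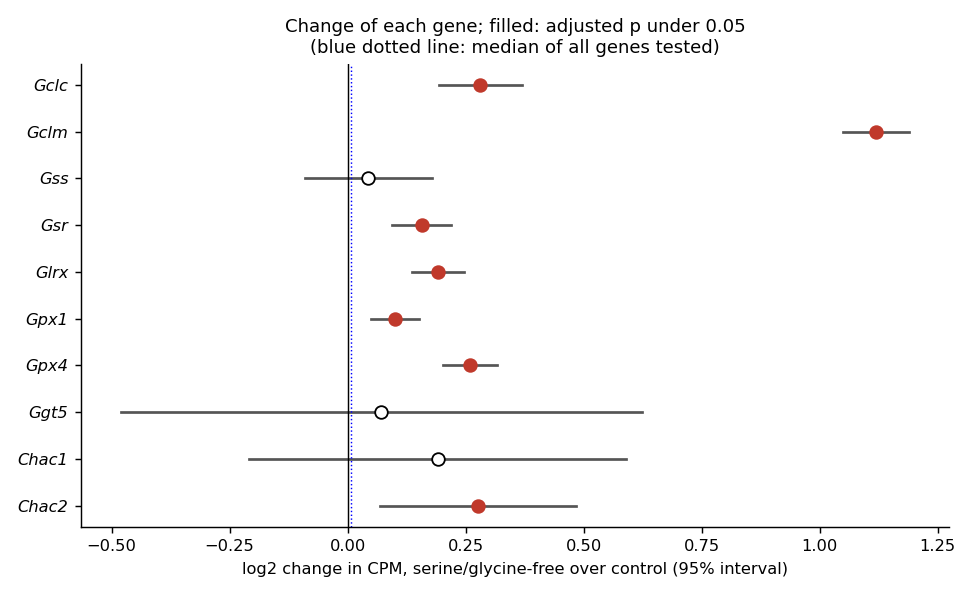
Log2 change in CPM (horizontal axis, serine/glycine-free over control) of the 10 glutathione genes, each with its 95% interval; filled points passed an adjusted p of 0.05, and the dotted line is the median of all genes tested. Gclm stands at 1.12, the other 6 filled points lie between 0.10 and 0.28, and the open points of Gss, Chac1 and Ggt5 have intervals that span 0.

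Both peroxidases of the set are selenoproteins. Gpx4 reduces lipid hydroperoxides in membranes and is the guard against ferroptosis, a death by lipid peroxidation (chromosome 10, 80047166 to 80056439, Entrez 625249). It had 237, 236, 246 and 249 CPM in serine/glycine-free libraries, and 205, 202, 195 and 207 CPM in control libraries. The groups lay clearly apart. It rose 1.197-fold (log2 change 0.26, SE 0.028, edgeR adjusted p = 2.87e-10).

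Gpx1 is the abundant peroxidase for soluble peroxides such as hydrogen peroxide (chromosome 9, 108339080 to 108340342, Entrez 14775). It had 758, 777, 778 and 832 CPM in serine/glycine-free libraries, and 740.3, 750.4, 729 and 716 CPM in control libraries. In CPM the groups lay close together but did not overlap. The rise was 1.07-fold (log2 change 0.10, SE 0.025, edgeR adjusted p = 0.0018), the smallest of the 7. In deposited TPM the groups overlapped (1504 to 1601 TPM in serine/glycine-free, 1448 to 1530 TPM in control libraries), and limma on log2(TPM + 1) gave 0.065 (adjusted p = 0.0634). After correction of each library for its length trend, the log2 change was 0.034 (adjusted p = 0.219). The effective length of Gpx1 was 897 bases, and that of Gpx4, whose call held under the same correction (0.19), was 811 bases.

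The peroxidases also moved by unequal amounts. Gpx1 to Gpx4 per effective length was 2.90, 2.97, 2.87 and 3.02 in serine/glycine-free libraries, and 3.27, 3.36, 3.39 and 3.13 in control libraries. The ratio was lower in every serine/glycine-free library (log2 difference -0.16, exact two-sided permutation test, p = 0.0286, adjusted p = 0.0429). Without serine/glycine-free replicate 1 or 3 the adjusted p was 0.0857, with log2 differences of -0.15 in both cases.

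**Figure D3:**
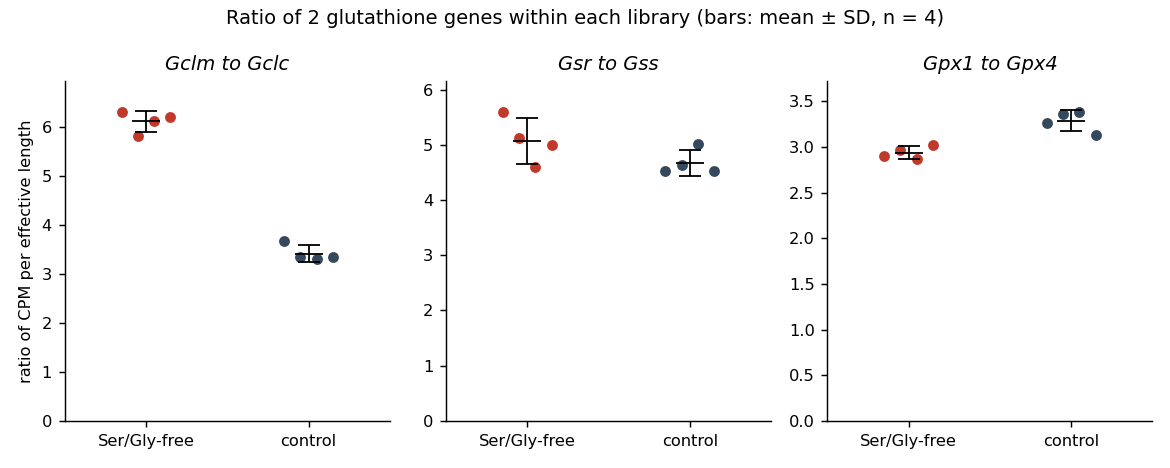
Ratio of CPM per effective length (vertical axes, from 0) between 2 glutathione genes in each library, serine/glycine-free on the left and control on the right; points are libraries and bars the mean ± SD, n = 4. Gclm to Gclc is higher (6.11 against 3.42) and Gpx1 to Gpx4 lower (2.94 against 3.29) in all serine/glycine-free libraries, while Gsr to Gss overlaps.

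The breakdown enzymes were expressed at low levels. Chac2, the ChaC enzyme described as constitutive, had 6.53, 6.49, 8.07 and 6.23 CPM in serine/glycine-free libraries, and 5.20, 5.85, 5.89 and 5.63 CPM in control libraries (chromosome 11, 30976707 to 30986365, Entrez 68044). In CPM the groups did not overlap, and serine/glycine-free replicate 3 stood apart at the top. In deposited TPM they did overlap, at 9.13 to 12.2 TPM in serine/glycine-free and 7.91 to 9.19 TPM in control libraries. The rise was 1.21-fold (log2 change 0.28, SE 0.10, edgeR adjusted p = 0.0335). Omitting serine/glycine-free replicate 3 left a log2 change of 0.19 that did not pass (adjusted p = 0.202). Omitting control replicate 1 gave 0.24 (adjusted p = 0.102), and omitting control replicate 4 gave 0.27 (adjusted p = 0.0595), neither of which passed. The call was also lost by DESeq2 (adjusted p = 0.153), with no filter on low counts (0.0513) and after correction for length (0.0892).

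Chac1 is the stress-inducible ChaC enzyme, a known target of ATF4 in the amino acid response (chromosome 2, 119351242 to 119354326, Entrez 69065). It had 1.70, 1.66, 1.56 and 2.23 CPM in serine/glycine-free libraries, from 28 to 39 counts, and 1.12, 1.82, 1.91 and 1.41 CPM in control libraries, from 20 to 34 counts. The groups overlapped. The log2 change was 0.19 (SE 0.20, edgeR adjusted p = 0.499), with a 95% interval of the fold from 0.866 to 1.504. Atf4 itself rose by 0.20 on the log2 scale (adjusted p = 4.28e-07). That is a transcript level and does not measure ATF4 protein or activity.

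The Chac1 promoter is shown because the core of the C/EBP-ATF element, TGATGNAA, can be looked for in it beside a transcript that did not pass the test. The printed 250 bases before the gene lie at chr2:119350992-119351241 on the plus strand (RefSeq, GRCm38.p6), with the match in capitals.
Chac1: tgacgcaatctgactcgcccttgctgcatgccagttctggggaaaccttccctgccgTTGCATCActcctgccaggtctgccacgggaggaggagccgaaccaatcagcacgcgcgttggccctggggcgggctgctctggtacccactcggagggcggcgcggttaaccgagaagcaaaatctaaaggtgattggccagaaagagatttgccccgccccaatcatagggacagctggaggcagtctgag
The match, on the minus strand, is 193 to 186 bases before the gene, at chr2:119351049-119351056. This core is present in 3.45% of the 32851 windows and in no window of the other 6 matched genes.

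Ggt5 was the lowest of the set, with 0.713, 0.888, 1.002 and 0.743 CPM in serine/glycine-free libraries (13 to 18 counts), and 1.06, 0.496, 0.897 and 0.731 CPM in control libraries (9 to 19 counts; chromosome 10, 75589327 to 75617200, Entrez 23887). The controls spread more widely than, and around, the serine/glycine-free libraries. The log2 change was 0.071 (SE 0.27, edgeR adjusted p = 0.876), and the 95% interval of the fold, 0.717 to 1.54, is too wide to place it. Its sign turned when serine/glycine-free replicate 3 was left out (-0.027, adjusted p = 0.966), and likewise for control replicate 2 (-0.10, adjusted p = 0.834). The estimated counts of all 10 genes were whole numbers in every library, at a tolerance of 1e-06.

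The sizes of change held within narrow ranges for most members when the normalization, the filter, the test or the set of libraries was changed. Gclm lay between 1.08 and 1.14 on the log2 scale, Gclc between 0.23 and 0.30, Gpx4 between 0.19 and 0.27, Glrx between 0.14 and 0.22 and Gsr between 0.12 and 0.18, and these 5 passed under every alternative run. Chac1 lay between 0.060 and 0.30 and passed under none of them.

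**Figure D4:**
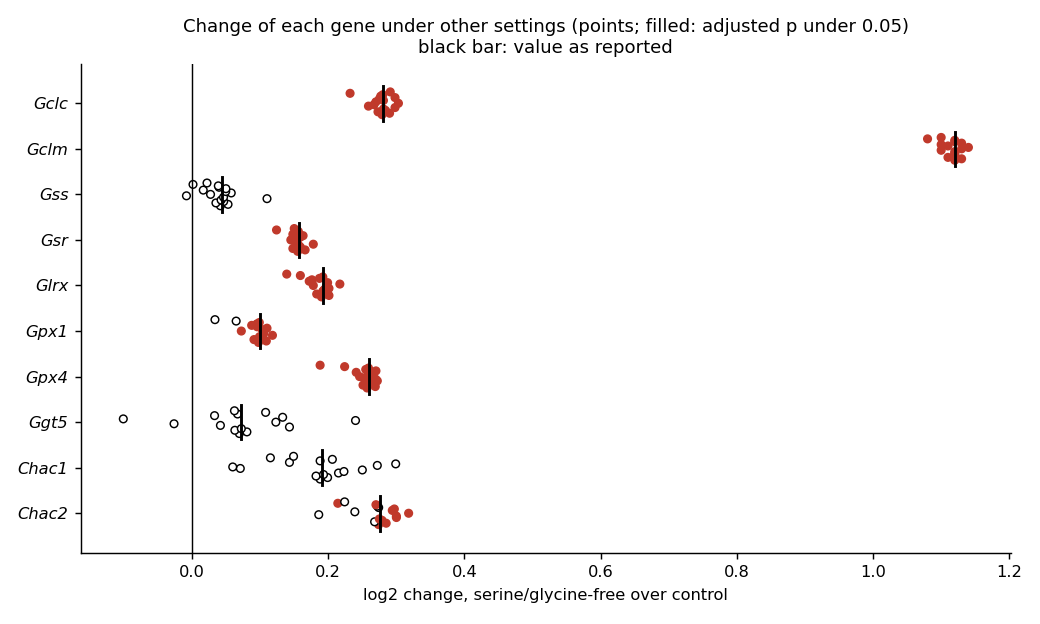
Log2 change (horizontal axis, serine/glycine-free over control) of each glutathione gene under the other normalizations, filters, tests and left-out libraries; points are settings, filled where the adjusted p was under 0.05, and the bar is the reported value. Gclm stays between 1.08 and 1.14, Gpx1 has open points at 0.034 and 0.065, and Chac2 mixes filled and open points.

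The other genes of the pathway were listed as 108 genes in 10 groups, 105 of them in the table and 89 with enough counts to test. Of these 89, 29 rose, 9 fell and 51 did not pass, 42.7% past the threshold against 33.2% of all genes tested. By group the share was 37.5% for export and import and for other selenoproteins, 38.5% for NADPH supply and 40% for other peroxidases and glutaredoxins. These lie near that of all genes. It was 50% for cysteine supply, for breakdown and salvage and for aldehyde removal, 55.6% for lipid peroxides and 64.3% for regulators. Selenoprotein synthesis stood at 0%. Groups held only 4 to 16 tested genes, so these shares are coarse. These lists too were chosen with earlier results of the data known, so the comparison is description only. Their median log2 change was 0.053, and the changes of single pathway genes are given on the same scale (log2 of CPM, edgeR). The largest rises among genes of at least 5 CPM were in aldehyde removal, NADPH supply, selenoproteins and cystine import.

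**Figure D5:**
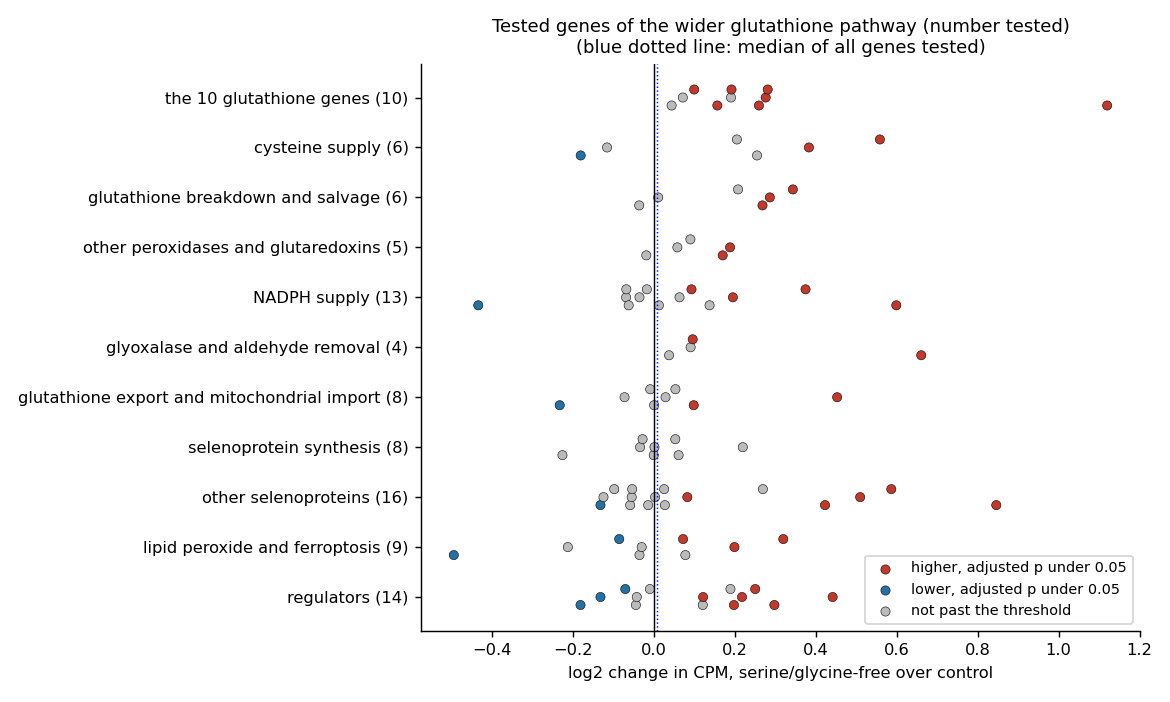
Log2 change in CPM (horizontal axis, serine/glycine-free over control) of each tested gene, by group of the wider glutathione pathway (rows, with the number tested); red passed upward, blue downward, grey did not pass, and the dotted line is the median of all genes tested. In the top row, which holds the 10 glutathione genes, Gclm at 1.12 is farthest right, and the selenoprotein synthesis row holds grey points only.

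In cysteine supply, 2 of 6 tested genes rose and 1 fell, with 3 not past the threshold. Slc7a11, the cystine importer, rose to 34.3 ± 1.31 CPM in serine/glycine-free libraries, against 23.3 ± 1.66 CPM in control libraries (SD, n = 4; log2 change 0.56, SE 0.053, edgeR adjusted p = 1.03e-11). Its partner Slc3a2 rose by 0.38. Its estimated counts were not whole in 8 of 8 libraries, a sign of reads split between loci, which makes its value uncertain. Slc1a5, a carrier of neutral amino acids, fell by 0.18 on the log2 scale. The transsulfuration enzymes Cth (-0.12, adjusted p = 0.542) and Cbs (0.25, adjusted p = 0.517) did not pass. With 1 library left out, Cth ranged from -0.19 (without control replicate 2) to -0.054 (without control replicate 1), and Cbs from 0.095 (without control replicate 3) to 0.43 (without control replicate 2), none past the threshold.

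In glutathione breakdown and salvage, 3 of 6 tested genes rose and 3 did not pass. Anpep (0.27) and Dpep2 (0.29), surface peptidases able to cut the dipeptide left by gamma-glutamyl transfer, rose. Not past the threshold were Cndp2 (-0.036, adjusted p = 0.258), Lap3 (0.011, adjusted p = 0.865) and Oplah (0.21, adjusted p = 0.404). Cndp2 averaged 628 CPM in serine/glycine-free and 644 CPM in control libraries, far above Anpep and Dpep2. Ggct, which turns gamma-glutamyl amino acids into oxoproline, rose by 0.34 (adjusted p = 0.0253). The Ggct call did not hold when serine/glycine-free replicate 1 (adjusted p = 0.0586), control replicate 1 (0.0574) or control replicate 3 (0.0709) was left out, nor by DESeq2 (0.138). Ggt1, the better known gamma-glutamyltransferase, had 1 to 2 counts in serine/glycine-free and 0 to 3 in control libraries, too few to test.

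Of the other peroxidases and glutaredoxins, 2 of 5 tested genes rose and 3 did not pass. The secreted peroxidase Gpx3 rose by 0.19 (adjusted p = 0.00323) and the peroxiredoxin Prdx6 by 0.17 (adjusted p = 1.59e-05). The glutaredoxins Glrx2, Glrx3 and Glrx5, at 0.090, -0.019 and 0.058, did not pass.

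NADPH, which Gsr uses, comes from several enzymes, of which 4 of 13 tested rose and 1 fell, with 8 not past the threshold. Idh1 rose by 0.37 (152 ± 1.38 CPM in serine/glycine-free and 117 ± 2.74 CPM in control libraries, adjusted p = 4.29e-14), malic enzyme Me1 by 0.60 and Pgd of the pentose phosphate pathway by 0.20. G6pdx, the first enzyme of that pathway, also rose (0.093, adjusted p = 0.00443), but not on the TPM scale (0.062, adjusted p = 0.0952). Aldh1l2, a mitochondrial folate enzyme that yields NADPH, fell by 0.43 on the log2 scale.

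Of 4 tested genes for glyoxalase and aldehyde removal, 2 rose and 2 did not pass. Esd, which frees glutathione again during formaldehyde removal, rose to 285 ± 8.75 CPM in serine/glycine-free libraries, against 180.0 ± 10.4 CPM in control libraries (log2 change 0.66, SE 0.033, adjusted p = 2.69e-16). Adh5, the enzyme before it, rose by 0.096 (adjusted p = 0.0287). Its groups overlapped, and the call failed on leaving out replicate 3 or 4 of either group (adjusted p between 0.0561 and 0.0963).

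Among export and mitochondrial import carriers, 2 of 8 tested genes rose and 1 fell, while 5 did not pass. Abcc3, a pump for conjugates, rose by 0.45 (adjusted p = 7.31e-17). The glutathione exporter Abcc1 rose by 0.098 (adjusted p = 0.00859), a call lost without control replicate 1 (0.0534) or control replicate 2 (0.0540). The mitochondrial carrier Slc25a10 fell by 0.23 on the log2 scale. The other tested mitochondrial carriers of this group did not pass: Slc25a39 (0.029, adjusted p = 0.528), Slc25a40 (0.053, adjusted p = 0.662) and Slc25a11 (-0.073, adjusted p = 0.0633).

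Gpx1 and Gpx4 need selenocysteine, and the 8 genes of selenoprotein synthesis gave no call in either direction by edgeR (adjusted p between 0.0934 and 0.997). At an unadjusted p under 0.05, 1 of the 8 passed (Sepsecs, -0.23, named after its value was seen), and DESeq2 and limma-voom called 0. Of 16 tested other selenoproteins, 5 rose, 1 fell and 10 did not pass. Txnrd1, thioredoxin reductase, rose by 0.42 (258 ± 5.14 CPM in serine/glycine-free and 193 ± 6.37 CPM in control libraries, adjusted p = 1.79e-16). Msrb1 (0.51), a methionine sulfoxide reductase, and Selenom (0.59) rose too. The selenium carrier Selenop fell by 0.13 on the log2 scale, to 2118 ± 31.1 CPM in serine/glycine-free libraries, against 2320.4 ± 40.9 CPM in control libraries.

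Among 9 tested genes of lipid peroxides and ferroptosis, 3 rose, 2 fell and 4 did not pass. Aifm2, a quinone reductase that limits lipid peroxidation beside Gpx4, rose by 0.32, with non-whole counts in 6 of 8 libraries. The iron exporter Slc40a1 rose by 0.20. Alox5, a lipoxygenase, fell by 0.49 on the log2 scale. Ncoa4 (0.072, adjusted p = 0.0389) and Tfrc (-0.086, adjusted p = 0.0208), both of iron handling, had overlapping groups. The Ncoa4 call was lost without any of replicates 1 to 3 of either group (adjusted p up to 0.130), and that of Tfrc without serine/glycine-free replicate 4 or control replicate 2 or 3 (up to 0.0925).

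Of 14 tested regulators, 6 rose, 3 fell and 5 did not pass. Nfe2l2, which encodes NRF2, rose by 0.12 (adjusted p = 0.000147), while Keap1, which marks NRF2 for degradation, fell by 0.13 and Bach1, a repressor at the same elements, fell by 0.18 on the log2 scale. Sqstm1 (0.30) and Atf3 (0.25) rose. Nfe2l1 stood at -0.071 (adjusted p = 0.0272), a call lost without serine/glycine-free replicates 1, 2 or 3 or control replicates 1 or 4 (adjusted p between 0.0544 and 0.0877). These are transcript levels and do not measure NRF2 protein or activity.

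The genes whose profile was most like that of Gclm were sought among the 9743 genes outside the set whose mean reached 5 CPM. The measure was the root-mean-square distance over the 8 libraries between log2(CPM + 1) values, each gene centred on its own mean. The closest were Ptgfrn (0.080), the cytokine receptor gene Il7r (0.091), Tmeff1 (0.091), the inhibitor of helix-loop-helix factors Id2 (0.092) and the tetraspanin gene Cd9 (0.11). Ptgfrn had 9.70 ± 0.417 CPM in serine/glycine-free and 4.38 ± 0.258 CPM in control libraries (SD, n = 4). Il7r had 37.5 ± 1.46 CPM in serine/glycine-free and 18.2 ± 0.817 CPM in control libraries, and Id2 369.8 ± 7.77 CPM in serine/glycine-free and 191 ± 2.13 CPM in control libraries. A small distance describes a like size of change and nothing more.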

How the data were processed

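RNA sequencing covered 4 serine/glycine-free and 4 control libraries, made from oligo-dT captured RNA per the labels' protocols. The authors deposited estimated counts, FPKM and TPM per gene and library. The submitters' processing notes name BWA, Bowtie2, RSEM and the build GRCm38.p6, with no tool versions. For the tests, estimated counts as deposited (8.06% to 8.47% of them not whole) were rounded. FPKM, by the authors, gave effective lengths from the ratio to the counts. TPM, scaled by the authors to a common sum, gave levels and 1 alternative test. The 6 columns of group means were not used.

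Genes passed edgeR's filter (minimum count 10, minimum total 15), with TMM scaling. Groups were compared with edgeR 4.0.16 (R 4.3.3) by the robust quasi-likelihood F test, Benjamini-Hochberg adjusted over all genes, at 0.05 and with 6 residual degrees of freedom. SE and intervals derive from the F statistic. Ratios within a library were tested by exact permutation. On simulated counts, 83.6% of 67 1.2-fold and 100% of 67 1.5-fold changes among 11651 genes were recovered, with 5.97% of calls false. Changes were planted only in genes of at least 5 CPM, so the recovery does not cover Chac1 and Ggt5, which lie below. A far smaller share of genes was changed than was called in the data, so the share of false calls need not be that of the data. No library copied another: the 12 within-group pairs had chi-square per degree of freedom of 1.42 to 3.59, above sampling noise, and the common coefficient of variation was 2.78%.

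The 10 genes and all lists were chosen with earlier results of these data known. Named pathway genes were those with the 3 smallest adjusted p per group and direction, plus 11 set by name. Glrx2, Glrx3, Glrx5, Sepsecs, Slc25a11, Slc25a39, Slc25a40, Cndp2, Lap3, Oplah and the low genes of the closing section were named after their values were seen. Alternatives were each library left out, the replicate block, scaling by RLE or by totals, a 5 CPM minimum on the mean or no filter, DESeq2 1.42.0, limma-voom 3.58.1, limma on log2(TPM + 1) with a mean of at least 1 TPM, a length correction per library (lowess, span 0.3), and a threshold of 0.01.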

Additional observations from a re-analysis of the deposited data

Results flagged for a closer look

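Among 98 groups of 4 libraries screened, 6 held a library set apart from the other 3 (Dixon's test at 95%), where chance gives about 4.9. Chac2 had 8.07 CPM in serine/glycine-free replicate 3, against 6.23 to 6.53 CPM in the others. The ratio of Gclm to Gclc was 3.67 in control replicate 1, against 3.30 to 3.35 in the others. Txnrd1 had 202 CPM in control replicate 2, against 188 to 191 CPM. In control replicate 1, Anpep was lower (94.2 CPM, against 98.5 to 99.2 CPM), G6pdx higher (245 CPM, against 238 to 239 CPM) and Aifm2 lower (14.5 CPM, against 15.98 to 16.3 CPM).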

How the results depend on the processing

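Over the other settings, 5 to 7 of the 10 genes rose and 0 fell: 5 with the length trend removed, where Gpx1 and Chac2 lost their calls, and 6 or 7 elsewhere. Gclm, Gclc, Gsr, Gpx4 and Glrx kept direction and call under all 18 alternatives each. Leaving out 1 library gave 6 to 7 rises among the 10 genes, 25 to 30 rises and 8 to 10 falls among the wider pathway genes, and 1589 to 1794 rises and 1790 to 1966 falls over all genes. Without 1 library the log2 change ranged from -0.00827 to 0.11 for Gss, turning sign without serine/glycine-free replicate 3. It ranged from -0.101 to 0.24 for Ggt5, turning sign without control replicate 2 and without serine/glycine-free replicate 3 (-0.0265). None of these passed. The cause was not tested.

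Same-numbered libraries did not deviate together (correlations between -0.0943 and 0.0609), and only replicate 2 correlated best with its own number. These correlations cannot decide whether same-numbered libraries shared an origin, because libraries of one origin need not deviate together. The labels do not say. With the replicate block, 1771 genes rose and 1884 fell, 7 of the 10 genes rose, and 26 pathway genes rose and 9 fell. In the paired form the log2 differences in ratio stayed 0.84 for Gclm to Gclc and -0.161 for Gpx1 to Gpx4 (exact sign-flip permutation test, adjusted p = 0.188 for both, where 4 differences cannot go below p = 0.125). Without 1 library the log2 differences ranged from 0.824 to 0.876 for Gclm to Gclc, from -0.184 to -0.146 for Gpx1 to Gpx4 and from 0.0687 to 0.164 for Gsr to Gss. Counts per library were at most 39 for Chac1, 19 for Ggt5 and 145 for Chac2, and the part of depth in their calls was not tested.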

Other observations

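Some relatives of the 10 genes had too few counts to test. Among glutathione peroxidases, Gpx2 had 0 to 2 counts in serine/glycine-free libraries and 0 in every control library. Gpx5 had 0 to 1 counts in serine/glycine-free and 0 in control libraries, and Gpx7 2 to 5 in serine/glycine-free and 3 to 8 in control libraries. The gamma-glutamyltransferase relative Ggt7 had 6 to 8 counts in serine/glycine-free and 4 to 11 in control libraries. The dipeptidase Dpep3 had 2 to 9 counts in serine/glycine-free and 1 to 4 in control libraries. Ggt6, Gpx6 and Gpx8 were listed too, but were not among the genes of the table under these symbols.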
